A study of Mus musculus with 4 samples.

Results

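The constitutive proteasome genes were followed through the cell types of KPC46 pancreatic tumours from mice given the SUMOylation inhibitor TAK-981 or its vehicle. The members were all gene rows whose symbol is Psma, Psmb, Psmc or Psmd followed by a number, without the interferon-inducible subunits Psmb8, Psmb9 and Psmb10. This gave 36 of the 32285 genes counted, 16 of the core particle (Psma and Psmb) and 20 of the regulatory particle (Psmc and Psmd). KPC46 is a mouse pancreatic ductal adenocarcinoma organoid line, and its tumours were carried by B6/129 F1J mice. Of the 4 tumours, each from 1 mouse, 2 came from mice given Vehicle (Cremophor) and 2 from mice given TAK-981 (Subasumstat), which blocks the enzyme that activates SUMO. All tumours derive from that single line, and neither dose, treatment time, age nor batch is stated in the labels used here, so treatment and any batch that coincided with it cannot be told apart. Dissociated cells were profiled with 10x 3′ v3.1 single-cell RNA sequencing, and dead cells were removed from samples of low viability.

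The 26S proteasome degrades proteins tagged with ubiquitin. Its core particle is a barrel of outer alpha rings, made from Psma genes, and inner beta rings, made from Psmb genes, where PSMB5, PSMB6 and PSMB7 carry the cutting sites. The regulatory particle caps the barrel: its PSMC ATPases unfold the substrate, its PSMD subunits bind ubiquitin and remove it, and PSMD5, PSMD9 and PSMD10 are chaperones of its assembly. SUMO-modified proteins can be ubiquitinated by SUMO-targeted ubiquitin ligases and then degraded by the proteasome, and the transcription factor NRF1 (Nfe2l1) raises subunit transcription together when proteasome capacity is short. In immune and interferon-treated cells PSMB8, PSMB9 and PSMB10 replace the constitutive catalytic subunits.

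The 4 libraries held 2214 to 4408 cells after filtering and 24411656 to 63898758 unique molecular identifiers (UMIs). Median depth was 2269 and 4153 UMIs per cell in the vehicle libraries and 5025 and 12831 UMIs in the TAK-981 libraries, and pairs of libraries shared 0 to 6 cell barcodes. The median share of mitochondrial UMIs, which reflects RNA and cell quality, was 2.93 and 2.71% in vehicle against 6.90 and 5.11% with TAK-981. Cells were clustered and named by marker genes, and 5 classes had at least 30 cells in every library. There were 957 and 1868 epithelial-like cells in the vehicle libraries against 888 and 1822 in the TAK-981 libraries, and 1495 and 826 macrophage or monocyte-like cells against 820 and 678. Fibroblast-like, T or NK-like and neutrophil-like cells were fewer, with as few as 69, 64 and 44 cells in a library, and 2 clusters of 366 and 698 cells stayed unnamed. All 10 epithelial markers were found in the epithelial-like sums, but Epcam, Cldn4 and Cldn7 had no UMI in at least 1 library. Clusters within a class followed the groups. The epithelial-like cluster led by Prl had 689 and 1685 cells in vehicle and only 34 and 53 with TAK-981, whereas those led by Tff1 and Tff2 (23 and 11 against 125 and 1520) and by Hp, Ambp, Ttr and Alb, which are known as hepatocyte genes (4 and 2 against 412 and 51), were the reverse. The latter cluster supplied 412 of the 888 epithelial-like cells of TAK-981 replicate 1, and its name is uncertain. None of the class's own markers was among the leading 10 genes of any epithelial-like cluster. Among macrophage-like cells, the cluster led by Ms4a4c and Ly6c2 had 19 and 0 cells in vehicle and 290 and 224 with TAK-981.

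The sequences upstream of 4 members are given because the results below turn on these genes: the catalytic genes Psmb5 and Psmb6, Psma4, whose direction was opposite in the tumour's 2 largest classes, and Psmd2, which had the highest fold change in epithelial-like cells. Each is the 150 bases of GRCm38.p6 that end at or before the annotated start of the gene, read 5′ to 3′ on the gene's strand, from the RefSeq promoter table. Capitals mark the letters TGANNNNGC, the core of the antioxidant response element that NRF1 and its relatives bind.
Psmb5 (chr14:54618023-54618172, minus strand): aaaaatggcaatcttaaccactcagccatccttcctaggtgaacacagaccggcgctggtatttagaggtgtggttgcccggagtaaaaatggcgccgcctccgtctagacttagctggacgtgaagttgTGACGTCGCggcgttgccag
Psmb6 (chr11:70525207-70525356, plus strand): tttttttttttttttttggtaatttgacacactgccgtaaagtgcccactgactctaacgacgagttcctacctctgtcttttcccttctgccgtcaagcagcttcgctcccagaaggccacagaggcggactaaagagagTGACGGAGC
Psma4 (chr9:54950640-54950789, plus strand): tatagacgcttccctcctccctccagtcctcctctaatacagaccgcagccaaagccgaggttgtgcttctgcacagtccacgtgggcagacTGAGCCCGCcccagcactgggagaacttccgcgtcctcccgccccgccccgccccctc
Psmd2 (chr16:20651502-20651651, plus strand): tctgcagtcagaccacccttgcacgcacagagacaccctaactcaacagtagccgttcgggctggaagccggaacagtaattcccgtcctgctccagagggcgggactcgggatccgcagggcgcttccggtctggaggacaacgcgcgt

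Psmb5, Psmb6 and Psma4 each held 1 match to TGANNNNGC, and these letters were not in the Psmd2 stretch. Across the 250 bases before the RefSeq start, searched on both strands, 13 of 31 windows of the 29 members in the table held TGANNNNGC (41.9%), against 35.2% of all 32851 windows. The CCAAT box (CCAAT, both strands) was in 12 of 31 member windows (38.7%) and in 33.8% of all windows, so both motifs were about as frequent upstream of members as upstream of genes at large. The letters of TGANNNNGC can hold CCAAT read on the other strand, and 3 of 31 member windows (9.68%) and 11.9% of all windows held both motifs. Psma8, Psmb1, Psmb2, Psmb7, Psmc3, Psmd3 and Psmd7 had no entry.

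No constitutive proteasome gene passed the test for a TAK-981 effect in any of the 5 classes. In macrophage-like, fibroblast-like and T or NK-like cells most members were higher in both TAK-981 libraries than in both vehicle libraries, by about 0.3 to 0.6 on the log2 scale at the median, whereas in epithelial-like cells members went both ways. With each library left out in turn, the core median ran from 0.28 to 0.57 in macrophage-like, from 0.19 to 0.70 in fibroblast-like and from 0.36 to 0.79 in T or NK-like cells. The ends of these ranges came without vehicle replicates 2 and 1 in macrophage-like cells and without TAK-981 replicates 1 and 2 in the other classes. Values are CPM, a gene's UMIs in each 1e6 UMIs summed over the class in 1 library, after TMM scaling, and a log2 fold change sets TAK-981 against vehicle, with its standard error (SE) from edgeR's quasi-likelihood fit, n = 2 mice per group. Calls are at an adjusted p of 0.05 by the Benjamini-Hochberg method over all genes tested in the class. The numbers of members tested were 34 in epithelial-like, 35 in macrophage-like, 34 in fibroblast-like, 31 in T or NK-like and 25 in neutrophil-like cells, the rest being too low in counts, so counts over tested members leave out those that were low in both groups. Psmb11, the thymus-specific catalytic subunit, had 1 UMI in all cells and was tested in no class. Psma8, the testis-specific alpha subunit, had 48 UMIs and was tested in macrophage-like cells alone, at 1.54 to 2.57 CPM per library.

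Counts of members called were 0 in both directions in every class by edgeR and by DESeq2. Over all genes, the shares called higher and lower by edgeR were 1.03% and 2.08% in epithelial-like, 0.0278% and 0.00928% in macrophage-like, 0.43% and 1.06% in fibroblast-like, 0% and 0.112% in T or NK-like and 0.228% and 0.0326% in neutrophil-like cells. DESeq2 called more genes: 561 higher and 699 lower of 12668 in epithelial-like and 69 and 220 of 10777 in macrophage-like cells. Its counts were 49 and 132 of 8601 in fibroblast-like, 5 and 52 of 3561 in T or NK-like and 46 and 17 of 3072 in neutrophil-like cells. Members with an unadjusted edgeR p under 0.05 numbered 2 in epithelial-like, 7 in macrophage-like, 7 in fibroblast-like, 4 in T or NK-like and 1 in neutrophil-like cells, all of them higher under TAK-981. Over all genes, 1340 higher and 1315 lower of 12668 had such a p in epithelial-like cells. The counts were 682 and 830 of 10777 in macrophage-like and 459 and 607 of 8601 in fibroblast-like cells. They were 204 and 277 of 3561 in T or NK-like and 221 and 173 of 3072 in neutrophil-like cells. The members' share was below that of all genes in epithelial-like and neutrophil-like cells. The smallest adjusted p of any member was 0.138, for Psmc4 in fibroblast-like cells. The plot of fold changes by class shows most members to the right of zero in macrophage-like, fibroblast-like and T or NK-like cells. In neutrophil-like cells 20 of 25 were above 0, where 51.1% of all genes were below 0. Their median of 0.27 was below the 0.29 of all genes whose longest transcript has 800 to 2000 nt.

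**Figure D1:**
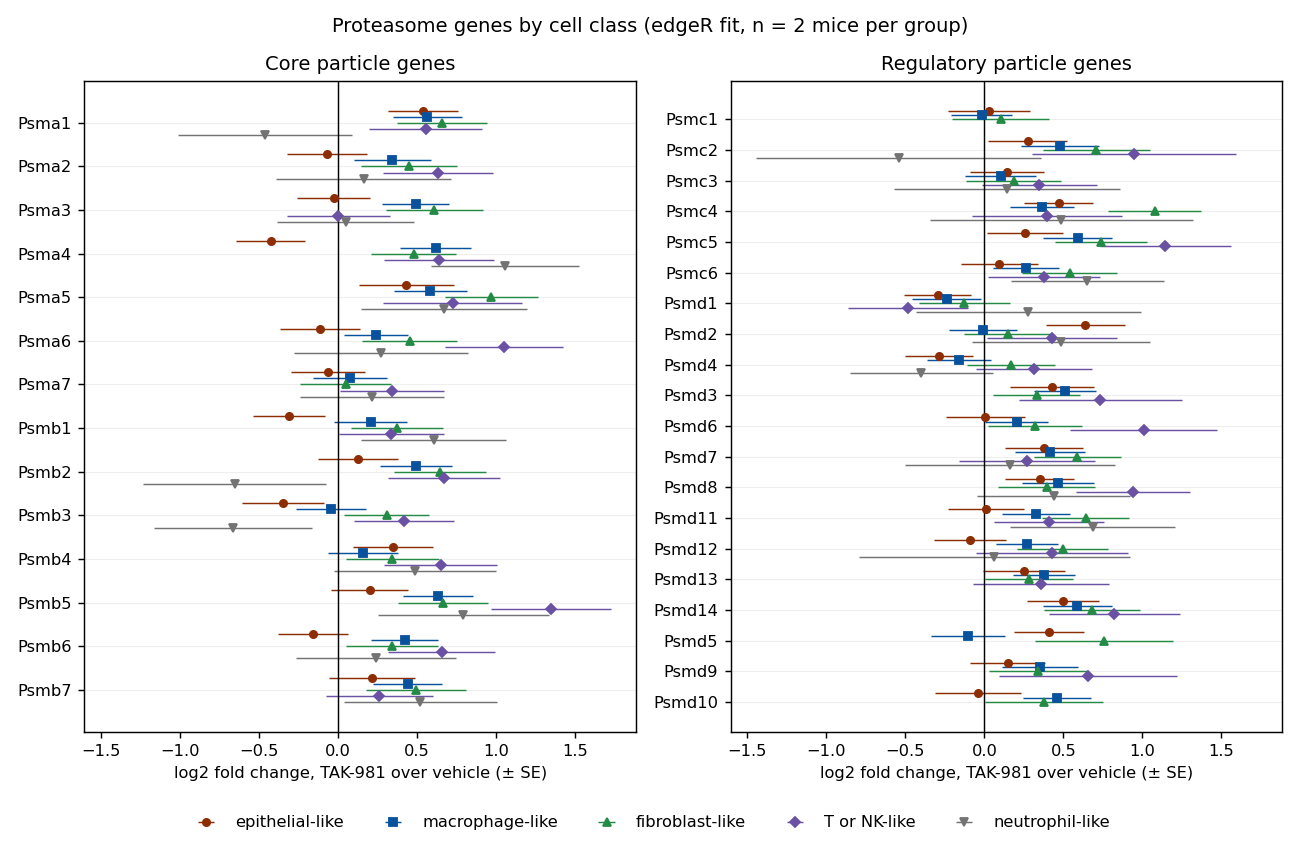
Log2 fold change (TAK-981 over vehicle, x axis) of each tested member (y axis) in 5 cell classes, with bars of 1 SE from the edgeR fit of n = 2 mice per group; core genes are on the left and regulatory particle genes on the right, and Psma8 is left out. Of the tested members 33 of 34 were above 0 in fibroblast-like cells and 22 of 34 in epithelial-like cells, and none passed the test.

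In macrophage or monocyte-like cells 24 of the 35 tested members were higher in both TAK-981 libraries than in both vehicle libraries, without overlap, and 2 were lower. A positive log2 fold change was found for 29 of 35, where 49.7% of all genes were below 0. Over all genes tested in these cells 23.7% were higher without overlap and 22.8% lower. Mitochondrial genes gave 3.28 and 2.80% of the UMIs of macrophage-like cells in vehicle against 7.41 and 5.94% with TAK-981, and the part of cell quality in the members' values was not tested. In the alpha ring 6 of 7 genes were higher without overlap. Psma4 was at 174 and 140 CPM in vehicle and at 243 and 239 CPM under TAK-981, a log2 fold change of 0.62 ± 0.22 (SE) with an edgeR adjusted p of 0.293. Psma1, with a log2 fold change of 0.57, and Psma5, with 0.59, had the same order of libraries. Psma7, the alpha subunit with 411 and 342 CPM in vehicle, was at 420 and 376 CPM under TAK-981, and its groups overlapped.

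All 3 constitutive catalytic genes were higher in both TAK-981 libraries of macrophage-like cells. Psmb5, which encodes the chymotrypsin-like subunit, was at 133 and 126 CPM in vehicle and at 223 and 179 CPM under TAK-981, a log2 fold change of 0.64 ± 0.22 (SE) with an edgeR adjusted p of 0.278. Psmb6, the caspase-like subunit, was at 198 and 192 CPM against 261 and 262 CPM, a log2 fold change of 0.42 with an edgeR adjusted p of 0.415. Psmb7, the trypsin-like subunit, was at 99.1 and 79.5 CPM against 131 and 112 CPM, a log2 fold change of 0.44 with an edgeR adjusted p of 0.413. Each gene's lower TAK-981 library exceeded its higher vehicle library. The non-catalytic beta gene Psmb3 differed from them, with 225 and 190 CPM in vehicle, 212 and 192 CPM under TAK-981 and a log2 fold change of -0.04, which became 0.09 without vehicle replicate 1 and 0.03 without TAK-981 replicate 2.

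The lid of the regulatory particle, which deubiquitinates substrates, had 8 of 8 genes higher without overlap in macrophage-like cells. Of all genes tested in these cells 23.7% were higher in this way. Psmd14, the deubiquitinase of the lid, was at 72.3 and 55.2 CPM in vehicle and at 93.7 and 98.7 CPM under TAK-981, a log2 fold change of 0.59 ± 0.22 (SE) with an edgeR adjusted p of 0.304. Among the ATPases 4 of 6 were higher without overlap. Psmc5 was at 77.5 and 61.0 CPM in vehicle and at 112 and 97.6 CPM under TAK-981, a log2 fold change of 0.59 ± 0.22 (SE) with an edgeR adjusted p of 0.302. Psmc1 sat at 61.2 to 62.6 CPM in all 4 libraries. The 3 non-ATPase genes of the base, which hold ubiquitin receptors and scaffolds, did not share the lid's position, and their log2 fold changes were -0.24 for Psmd1, -0.16 for Psmd4 and -0.01 for Psmd2. Psmd4, a ubiquitin receptor, was at 133 and 129 CPM in vehicle against 124 and 110 CPM under TAK-981, with an edgeR adjusted p of 0.774. Psmd1, a scaffold subunit, was at 92.1 and 105 CPM against 73.4 and 93.6 CPM, and its groups overlapped (edgeR adjusted p = 0.671, and log2 fold change -0.08 without TAK-981 replicate 1 and -0.43 without TAK-981 replicate 2). The assembly chaperones split: Psmd10 and Psmd9 were higher without overlap at 0.46 and 0.35, while Psmd5 was at -0.10, with 17.8 and 18.9 CPM in vehicle against 18.1 and 16.0 CPM under TAK-981 (edgeR adjusted p = 0.889).

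Epithelial-like cells gave no common direction. Of 34 tested members 22 had a positive log2 fold change, where 49% of all genes were below 0, and 8 were higher without overlap and 5 lower, where 27% of all genes tested were higher and 26.8% lower. The core genes had a median log2 fold change of -0.04 and the regulatory particle genes one of 0.20, and the median over all genes was 0.01. These medians moved across 0 with single libraries: the core median was 0.08 without vehicle replicate 1 and 0.10 without TAK-981 replicate 2, and the regulatory particle median was -0.04 without TAK-981 replicate 1. With the trend of fold change on transcript length removed, the core median was 0.09 and the regulatory particle median 0.06, and the cause was not tested. Without the cluster led by Hp and Ambp, left out after the data were seen, 0 members passed by edgeR and 2 had an unadjusted p under 0.05. In that fit 8 members were higher and 6 lower without overlap, and the medians were -0.06 for the core and 0.16 for the regulatory particle. The shares of all genes without overlap or with such a p in that fit are not given here. Psmd2, a scaffold of the base that receives delivery factors, was at 135 and 110 CPM in vehicle and at 219 and 164 CPM under TAK-981, a log2 fold change of 0.64 ± 0.25 (SE) with an edgeR adjusted p of 0.213. Psma1 was at 122 and 109 CPM in vehicle and at 183 and 153 CPM under TAK-981, a log2 fold change of 0.54 ± 0.22 (SE) with an edgeR adjusted p of 0.232. In both genes the groups did not overlap, and without TAK-981 replicate 1 the log2 fold change of Psmd2 was 0.39. Psmd14 had 123 and 112 CPM against 186 and 147 CPM, a log2 fold change of 0.50 with an edgeR adjusted p of 0.274. Psmc4, an ATPase, had 81.5 and 75.4 CPM against 118 and 99.1 CPM, a log2 fold change of 0.47 with an edgeR adjusted p of 0.282. Without TAK-981 replicate 1 they were at 0.30 and 0.31. Neither overlapped between groups, and 4 of the 8 lid genes lay higher in this way.

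Of 12 members with a negative log2 fold change in epithelial-like cells, 5 were lower without overlap: Psma4, Psmb1, Psmb3, Psmd1 and Psmd4. The others, among them 4 more alpha ring genes, lay between -0.16 and -0.03. Psma4 was at 372 and 313 CPM in vehicle and at 263 and 247 CPM under TAK-981, a log2 fold change of -0.43 ± 0.22 (SE) with an edgeR adjusted p of 0.321. Psmb3 was at 543 and 511 CPM against 494 and 335 CPM, a log2 fold change of -0.35 ± 0.26 (SE) with an edgeR adjusted p of 0.490. Psmb1, a non-catalytic beta subunit, was at 579 and 607 CPM against 540 and 417 CPM, a log2 fold change of -0.31 with an edgeR adjusted p of 0.490. In these 3 genes both TAK-981 libraries were below both vehicle libraries, although Psmb3 moved to 0.17 when the trend on the length of the principal transcript was removed. Without TAK-981 replicate 1 Psmb3 was at -0.68 and Psmb1 at -0.53, and without TAK-981 replicate 2 they were at -0.13 and -0.17. Psmd1 was lower without overlap as well, at 161 and 178 CPM against 131 and 145 CPM (log2 fold change -0.30, edgeR adjusted p = 0.475), and so was Psmd4, at 197 and 213 CPM against 177 and 159 CPM. The catalytic genes overlapped between groups. Psmb5 was at 213 and 209 CPM in vehicle and at 281 and 205 CPM with TAK-981 (log2 fold change 0.20, and -0.07 without TAK-981 replicate 1). Psmb6 was at 203 and 194 CPM against 197 and 160 CPM (log2 fold change -0.16), and Psmb7 at 228 and 158 CPM against 252 and 197 CPM (log2 fold change 0.22, and -0.03 without vehicle replicate 2). The edgeR adjusted p of these 3 genes was 0.680, 0.735 and 0.691.

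The direction of epithelial-like values depended on the scaling. Ribosomal protein genes took 32.9 and 34.3% of epithelial-like UMIs in vehicle and 19.3 and 22.3% under TAK-981, and the TMM factors were 0.836 and 0.841 against 1.22 and 1.17. With scaling by total UMIs, an alternative added after the data were seen, the median log2 fold change of all genes moved to 0.52, the core median to 0.47 and the regulatory particle median to 0.71. Relative to that shift the core genes stood slightly below and the regulatory particle genes above the genes at large, as they did with TMM scaling. Under it 5 members rose by edgeR, namely Psma1, Psmc4, Psmd14, Psmd2 and Psmd5, as did 1410 of all 12668 genes, while 223 fell. With TMM scaling 131 genes rose and 264 fell. All 34 members had a positive log2 fold change on that scale, the named lower genes included (Psma4 at 0.08 and Psmb3 at 0.17). Macrophage transcripts also moved with the groups in the epithelial-like sums: the 12 macrophage markers, of which Ly6c2 alone was at 0 in a library, summed to 161 and 109 CPM (total scaling) in vehicle and to 951 and 226 with TAK-981, against 18065 to 39182 in macrophage-like cells. Their part in the members' values was not tested. Mitochondrial genes gave 4.02 and 3.79% of epithelial-like UMIs in vehicle against 4.67 and 5.59% with TAK-981.

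**Figure D2:**
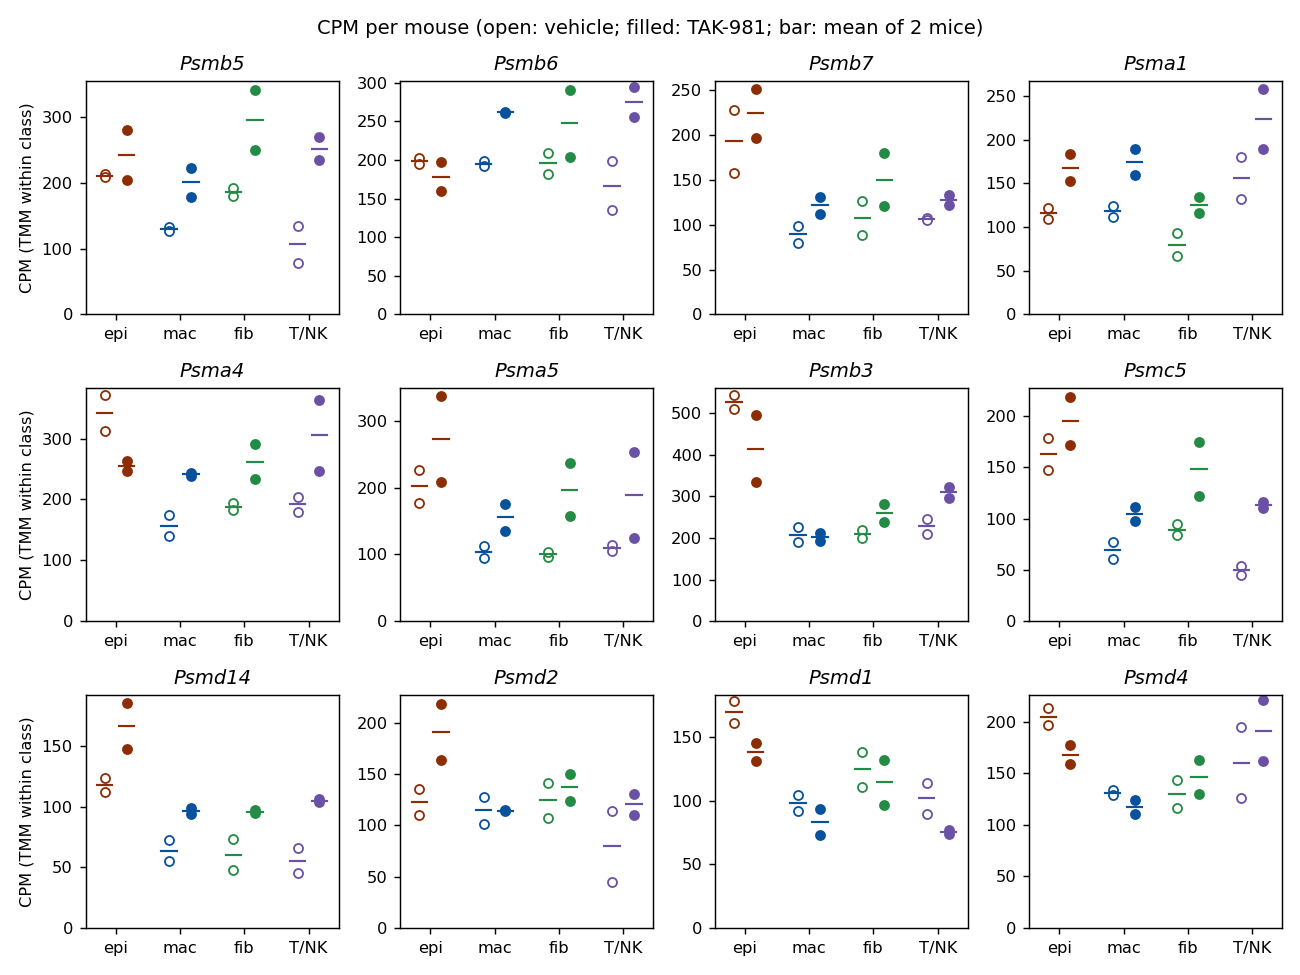
CPM of 12 members (y axis, from 0, TMM scaling within each class) in epithelial-like (epi), macrophage-like (mac), fibroblast-like (fib) and T or NK-like cells (x axis); open points are the 2 vehicle mice, filled points the 2 TAK-981 mice and bars their means. The catalytic gene Psmb5 did not overlap between groups in macrophage-like cells (133 and 126 against 223 and 179), and Psma4 lay lower under TAK-981 in epithelial-like cells and higher in the other 3 classes.

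In fibroblast-like cells 33 of 34 tested members had a positive log2 fold change, where 50% of all genes were below 0, and 21 were higher without overlap against 22% of all genes tested. None was lower without overlap, against 22.4% of all genes. The highest values belonged to the ATPase Psmc4 and the alpha subunit Psma5. Psmc4 was at 51.4 and 59.5 CPM in vehicle and at 136 and 99.6 CPM under TAK-981, a log2 fold change of 1.08 ± 0.30 (SE) with an edgeR adjusted p of 0.138. Psma5 was at 96.2 and 104 CPM in vehicle and at 237 and 158 CPM under TAK-981, a log2 fold change of 0.97 ± 0.30 (SE) with an edgeR adjusted p of 0.191. In both, TAK-981 replicate 1 was the highest library. The core median was 0.47, and 0.19 without that replicate. Psmc4 rose when genes of low counts were kept in the fit, which called 240 higher and 284 lower of 16469 genes. The main fit called 37 and 91 of 8601. Macrophage markers summed to 271 and 459 CPM (total scaling) of fibroblast-like cells in vehicle and to 1760 and 708 with TAK-981, with Ms4a7, Fcgr1, Ccr2 and Ly6c2 at 0 in at least 1 library. Mitochondrial genes gave 3.37 and 1.82% of UMIs in vehicle against 4.54 and 4.76% with TAK-981. The part of either in these values was not tested.

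In T or NK-like cells 30 of 31 tested members had a positive log2 fold change, where 49.6% of all genes were below 0, and 20 were higher without overlap, against 23.8% of all genes tested. The exception was Psmd1, at 114 and 89.9 CPM in vehicle against 73.6 and 76.8 CPM with TAK-981 (log2 fold change -0.48, edgeR adjusted p = 0.630). It was also the single member lower without overlap, against 21.5% of all genes. Psmb5 was at 78.0 and 135 CPM in vehicle and at 270 and 235 CPM under TAK-981, a log2 fold change of 1.35 ± 0.38 (SE) with an edgeR adjusted p of 0.177. Psmc5, at 54.0 and 44.9 CPM against 110 and 116 CPM, had a log2 fold change of 1.15 ± 0.42 (SE) and an edgeR adjusted p of 0.266. Psma6, at 108 and 59.9 CPM against 200.2 and 181 CPM, had a log2 fold change of 1.05. For these 3 genes the lowest TAK-981 library was above the highest vehicle library. Psmc2 had no UMI in vehicle replicate 2, where the class held 79375 UMIs from 66 cells. Mitochondrial genes gave 3.41 and 2.28% of UMIs in vehicle T or NK-like cells against 5.78 and 4.74% with TAK-981. Macrophage markers summed to 530 and 265 CPM (total scaling) in vehicle and to 1033 and 667 with TAK-981. Of these, C1qb, Adgre1, Mrc1, Ms4a7 and Fcgr1 were at 0 in at least 1 library. The part of either in these values was not tested. Vehicle T or NK-like cells had a median of 1223 and 1114 UMIs and TAK-981 ones a median of 3050 and 2590 UMIs.

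Neutrophil-like cells had a median of 666 and 621 UMIs per cell in vehicle and of 1586 and 1439 with TAK-981, the lowest of the 5 classes in each library, and their summed UMIs ran from 77076 in TAK-981 replicate 1 to 590968 in vehicle replicate 1. Of 25 tested members 6 were higher without overlap, against 21.6% of all genes, and 3 lower, against 22.2%. Psma4 was at 46.9 and 49.6 CPM in vehicle and at 107 and 96.3 CPM with TAK-981 (log2 fold change 1.06 ± 0.47 (SE), edgeR adjusted p = 0.389). Psmb3 was at 126 and 208 CPM against 133 and 84.3 CPM, and its groups overlapped. The SE of members in this class was 0.43 to 0.90, against 0.19 to 0.55 in macrophage-like cells. The 8 neutrophil markers summed to 72745 and 70594 CPM (total scaling) in vehicle and to 34823 and 37252 with TAK-981. Epithelial markers summed to 186 and 433 against 1181 and 765 and acinar ones to 117 and 39.9 against 4411 and 513. Of these, 6 of 10 epithelial and 8 of 10 acinar markers had no UMI in at least 1 library. Macrophage markers overlapped. The part of these transcripts in the members' values was not tested.

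Whether the TAK-981 effect on a member differed between epithelial-like and macrophage-like cells was tested by the interaction of class and treatment over 8 sums, with the library as a block. No member passed by edgeR, and 3 of 35 had an unadjusted p under 0.05, a count not given here over all genes. Of 13186 genes 14 passed with a higher effect in epithelial-like cells (0.106%) and 0 with a lower one (0%). Among the 34 members tested in both classes Psma4 had the largest difference, its effect being lower in epithelial-like cells by -0.92 ± 0.22 (SE) on the log2 scale, with an unadjusted edgeR p of 0.0051 and an adjusted p of 0.209. It was the one member lower without overlap in epithelial-like cells and higher without overlap in macrophage-like cells. Over 6 alternative fits its difference was between -1.22 and -0.86 and its adjusted p between 0.102 and 0.609. Psmd2 differed the other way, by 0.76 ± 0.25 (SE) with an edgeR adjusted p of 0.324.

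The classes differed in how much constitutive proteasome RNA they held. Epithelial-like cells held the most and neutrophil-like cells the least, and macrophage-like cells lay between them. On a TMM scale joint to the 5 classes, 30 of the 34 members with counts in all of them were highest in epithelial-like cells and 32 were lowest in neutrophil-like cells. On the scale of total UMIs 23 of the 34 were highest in epithelial-like cells and 33 lowest in neutrophil-like cells. As UMIs in each 1e6 of the class total, core genes summed to 3838 and 3498 in the vehicle libraries of epithelial-like cells and to 5926 and 4282 in the TAK-981 libraries. In macrophage-like cells the same sum was 2381 and 2205 in vehicle against 3671 and 3194 with TAK-981. In neutrophil-like cells it was 870 and 1321 against 1570 and 1095. Epithelial-like sums were thus above macrophage-like sums in the same mouse in all 4 libraries, and for single genes this held in every library for 26 of 36 members and the reverse for 2. Fibroblast-like cells (core sum 2488 to 4780) and T or NK-like cells (2152 to 4671) overlapped with macrophage-like cells and with each other. The ratio between the highest and the lowest class, among members with UMIs in all of them, was widest for Psmd7, at 8.64-fold, and smallest for Psmd4, at 1.96-fold. Core to regulatory particle ratios of summed UMIs were 1.38 to 1.70 in epithelial-like, 1.59 to 1.78 in macrophage-like, 1.53 to 1.67 in fibroblast-like and 1.79 to 2.06 in T or NK-like cells. In epithelial-like cells this ratio was 1.70 and 1.63 in vehicle against 1.47 and 1.38 with TAK-981, without overlap, and scaling does not enter it. Dendritic-like cells, as few as 26 in a library, had 2.37 and 2.24 against 2.12 and 1.98. Within epithelial-like clusters the ratio overlapped between groups in that led by mt-Atp8 and Gm42418 but not in that led by Prl. With the length trend removed, the epithelial-like core and regulatory particle medians were 0.09 and 0.06. The part of transcript length or clusters in this ratio was not tested. These levels describe RNA in summed cells and carry no test.

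**Figure D3:**
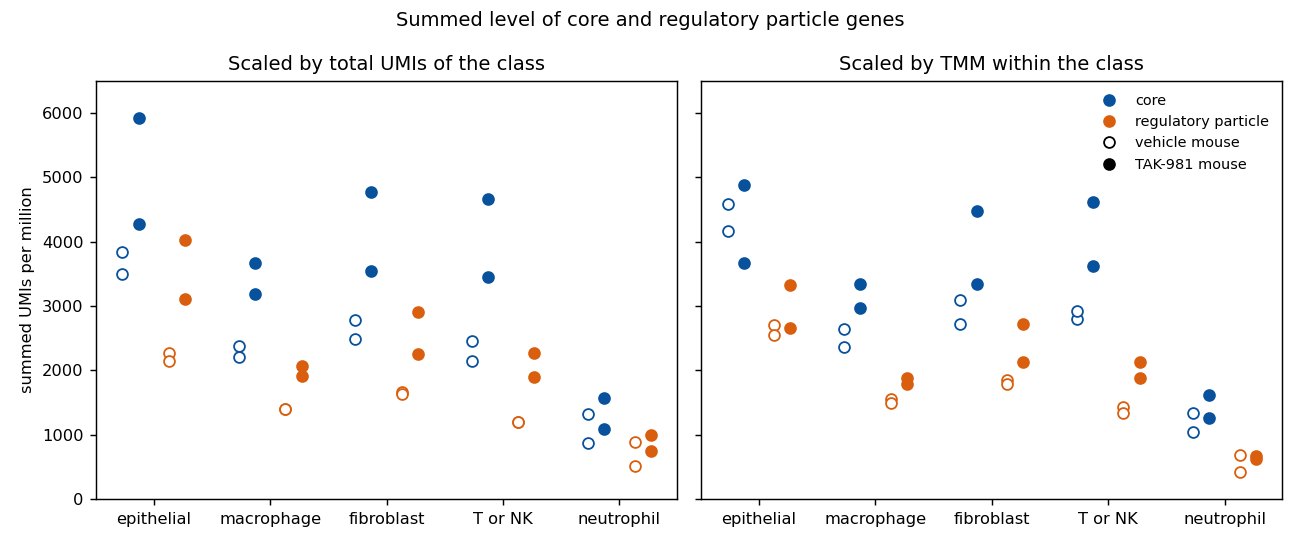
Summed level of core (blue) and regulatory particle genes (orange) in 5 cell classes (x axis), in CPM (y axis). The left panel sums all members and scales by the total UMIs of the class. The right panel sums the tested members and scales by TMM within each class. Open points are vehicle mice and filled points TAK-981 mice. Epithelial-like core sums are apart on the left (3838 and 3498 against 5926 and 4282) and overlap on the right (4592 and 4160 against 4882 and 3666).

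On the TMM scale the core sum of macrophage-like cells was 2648 and 2364 CPM in vehicle against 3341 and 2975 CPM with TAK-981, and that of T or NK-like cells was 2801 and 2921 against 4618 and 3620. Both stayed apart between groups, as on the total scale. The median shift of all genes under total scaling was 0.25 in macrophage-like, 0.23 in fibroblast-like, 0.33 in T or NK-like and -0.004 in neutrophil-like cells. Members' medians on that scale were 0.60, 0.69, 0.88 and 0.24 in the same order, against 0.35, 0.45, 0.56 and 0.27 with TMM, so in the first 3 classes they lay above the genes at large under both scalings.

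Transcript length moved with the fold changes of all genes. Genes whose longest transcript is under 800 nt had a median log2 fold change of -0.78 in epithelial-like, -0.64 in macrophage-like and -0.70 in fibroblast-like cells, and genes of 1200 to 1600 nt had one of 0.22, 0.23 and 0.34. No tested member had a longest transcript under 800 nt, but the principal transcripts of Psmb3 and Psmb6 have 766 and 798 nt. The 10 members of 1200 to 1600 nt had medians of 0.14, 0.44 and 0.48 in these classes, below the genes of like length in epithelial-like and above them in the other 2. With the length trend of all genes removed, the members' medians were 0.07 in epithelial-like, 0.24 in macrophage-like, 0.34 in fibroblast-like, 0.36 in T or NK-like and 0.17 in neutrophil-like cells, against 0.01 to 0.03 over all genes. Psmb6 in epithelial-like cells had the opposite sign under it, at 0.12. The part that length has in these values beyond that fit was not tested.

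**Figure D4:**
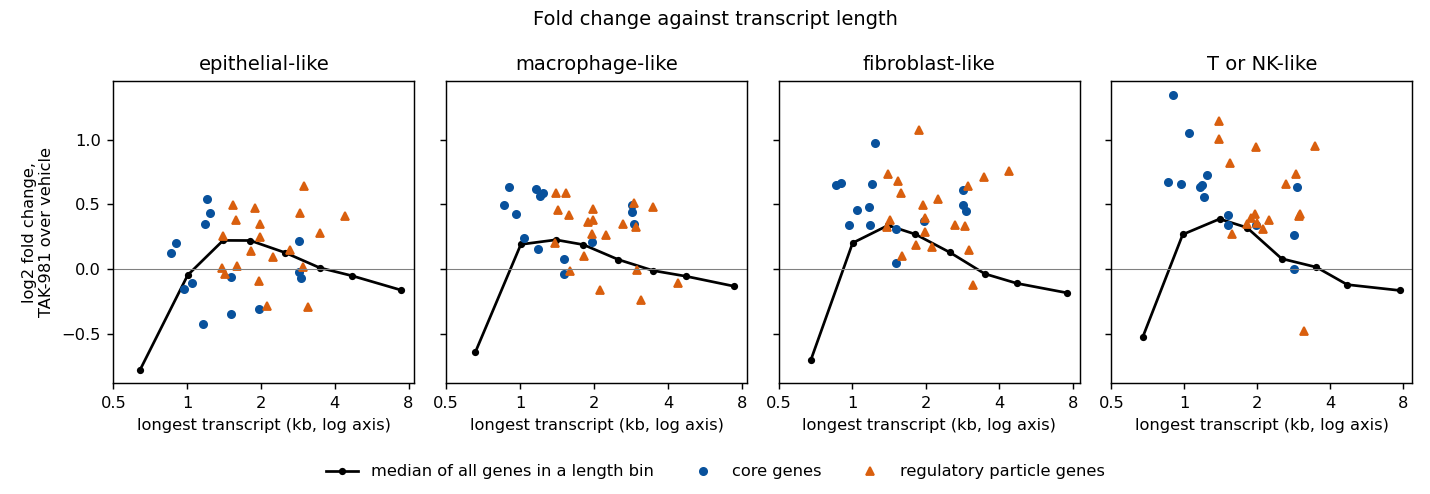
Log2 fold change (TAK-981 over vehicle, y axis) against the longest annotated transcript (x axis, kb, log scale) in 4 classes; blue points are core genes, orange triangles regulatory particle genes, and the black line joins medians of all tested genes in 8 length bins. Genes under 800 nt had medians of -0.78, -0.64, -0.70 and -0.53 from left to right, and members lay mostly above the line outside epithelial-like cells.

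Members were also fitted in the 4 epithelial-like and macrophage-like clusters that had at least 30 cells in every library. In the macrophage-like cluster led by Ccl24 and Ccr2, 28 of 34 tested members had a positive log2 fold change, with a core median of 0.34 and a regulatory particle median of 0.35. In that led by Pf4 and F13a1, 26 of 34 were positive, with medians of 0.40 and 0.21. In the epithelial-like cluster led by Prl, 24 of 34 were positive, with medians of 0.03 and 0.27, although its TAK-981 libraries held only 34 and 53 cells. The epithelial-like cluster led by mt-Atp8 and Gm42418 had 21 of 34 positive and medians of 0.07 and 0.15. In both epithelial-like clusters the core median was thus above 0, whereas that of the whole class was -0.04. No member passed the edgeR test in any of these 4 clusters, where 2, 9, 1 and 3 members had an unadjusted p under 0.05 in the order given. The like counts over all genes are not given here.

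Other genes of the pathway gave few calls. Of the 3 immunoproteasome subunits, Psmb8 rose in epithelial-like cells, from 2.77 and 1.25 CPM to 28.4 and 10.3 CPM (log2 fold change 3.30 ± 0.61 (SE), edgeR adjusted p = 0.0458), and in fibroblast-like cells, from 71.3 and 30.9 CPM to 166 and 202 CPM (1.88 ± 0.38 (SE), edgeR adjusted p = 0.0463). Both calls were lost when vehicle replicate 2 was left out, at adjusted p = 0.124 and 0.203, when doublets were kept, at 0.0513 and 0.164, and with the length trend removed, at 0.0653 and 0.110. That in epithelial-like cells was also lost without vehicle replicate 1 (0.0543) and without TAK-981 replicate 1 (0.0745), and in the cluster led by Prl alone the log2 fold change was 1.23. Macrophage markers were also higher with TAK-981, at 161 and 109 against 951 and 226 CPM (total scaling) in epithelial-like sums. In fibroblast-like sums they were at 271 and 459 against 1760 and 708. The order of libraries was the same for these markers and Psmb8 in epithelial-like sums. In fibroblast-like sums the library with more of these markers in each group had less Psmb8. The part of these markers in its calls was not tested. Without the epithelial-like cluster led by Hp and Ambp these markers were at 161 and 109 against 388 and 226 CPM, and Psmb8 was at 2.67 and 1.24 against 14.5 and 10.0 CPM (edgeR adjusted p = 0.0177). Psmb9 had a log2 fold change of 2.26 in epithelial-like and 1.15 in macrophage-like cells, and Psmb10 one of 0.06 and 0.57, none of which passed. In macrophage-like cells Psmb8 was at 264 and 181 CPM against 503 and 407 CPM (1.03, edgeR adjusted p = 0.180). Unlike the constitutive catalytic genes in the same epithelial-like sums, Psmb8 and Psmb9 did not overlap between groups.

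Of 5 assembly factors tested in epithelial-like cells Psmg4, part of a chaperone of the alpha ring, fell from 115 and 96.5 CPM to 28.2 and 29.8 CPM (log2 fold change -1.87 ± 0.23 (SE), edgeR adjusted p = 0.0157). Its transcript has 555 nt, and with the length trend removed it was at -0.83 with an adjusted p of 0.0860. Of 6 particle-associated genes Sem1, the smallest lid subunit, fell in epithelial-like cells from 930 and 760.2 CPM to 242 and 256 CPM (-1.76 ± 0.23 (SE), edgeR adjusted p = 0.0185) and in fibroblast-like cells from 677 and 602 CPM to 177 and 234 CPM (-1.64 ± 0.30 (SE), edgeR adjusted p = 0.0309). The epithelial-like call held in every single-library omission, with adjusted p up to 0.0459, whereas that in fibroblast-like cells was lost without vehicle replicate 1 (0.0991), without vehicle replicate 2 (0.0637) and without TAK-981 replicate 1 (0.0870). Sem1 thus fell in a class in which 7 of the 8 other lid genes had a positive log2 fold change. Of 13 genes of ubiquitin supply and delivery Rps27a, a ubiquitin and ribosomal protein fusion, fell in epithelial-like cells (-1.46 ± 0.22 (SE), edgeR adjusted p = 0.0263), a call lost without either vehicle replicate (0.0677 without replicate 1 and 0.0628 without replicate 2) and with the length trend removed (0.0745).

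The regulators of subunit transcription gave no call among 7 tested in epithelial-like, macrophage-like or fibroblast-like cells. Nfe2l1, which encodes NRF1, was at 82.2 and 80.3 CPM in vehicle and at 42.2 and 56.0 CPM under TAK-981 in epithelial-like cells (log2 fold change -0.72 ± 0.24 (SE), edgeR adjusted p = 0.147). It was at 126 and 105 CPM against 52.2 and 87.0 CPM in fibroblast-like cells (-0.72, edgeR adjusted p = 0.399) and at 55.2 and 52.9 against 35.2 and 47.7 CPM in macrophage-like cells (-0.38, edgeR adjusted p = 0.508). In all 3 classes its TAK-981 libraries were below its vehicle libraries, unlike most members in fibroblast-like and macrophage-like cells. Nfe2l2, the related NRF2, was at -0.03 in epithelial-like and -0.47 in macrophage-like cells. The 11S activator genes also gave no call: Psme1 was at -0.22 and 0.11 and Psme2 at 0.31 and 0.74 in epithelial-like and macrophage-like cells, and Psme2 shares sequence with a near-identical copy, so its counts are uncertain. Neither of the SUMO-targeted ubiquitin ligase genes Rnf4 and Rnf111 passed in these classes.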

How the data were processed

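The authors deposited raw counts of UMIs for each gene and barcode. Cell Ranger 6.1.2 and mm10 are named per the submitters' processing notes. How reads that fit several genes were treated is not given in the sources used here. All deposited count columns were used, so columns not used numbered 0. The members, gene lists and roles were chosen with earlier results of these data known, and those results give no independent support.

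Kept barcodes had 500 or more UMIs, 250 or more genes and no more than 20% of UMIs from mitochondrial genes. Scrublet doublets were removed per library at an assumed 0.8% per 1000 cells. Clustering used scanpy 1.11.5 and igraph 0.11.9 (Python 3.11.15; pandas 2.3.3, numpy 2.4.6, matplotlib 3.10.9, scikit-learn 1.9.0, scipy 1.17.1) with 2000 variable genes, none of them a member, 30 components, 15 neighbours and Leiden resolution 1.0, without integration. Clusters were named "X-like" from marker lists. Differences may come from these rebuilt names.

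Counts were summed per library and class. The main test on genes passing filterByExpr was edgeR's quasi-likelihood F test (edgeR 4.0.16, limma 3.58.1 and R 4.3.3, with tables read by the data.table package, 1.17.8), with TMM scaling and Benjamini-Hochberg adjustment. DESeq2 1.42.0 was an alternative. The fit was tested on simulated counts. The p-values rest on n = 2 mice per group, and replicates of a group differed beyond sampling noise. Named with full values were the 4 highest and the 4 lowest members by log2 fold change in epithelial-like and macrophage-like cells and the 3 catalytic genes; values in other classes and of Psma1, Psma5, Psma7, Psmc1, Psmd4, Psmd9 and Psmd10 outside that rule were chosen after they were seen. Pathway genes were named when called, with Psmb8, Psmb9, Psmb10, Psme1, Psme2, Nfe2l1 and Nfe2l2. Transcript lengths are from GENCODE vM21 and promoters from RefSeq (GRCm38.p6).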

Additional observations from a re-analysis of the deposited data

Results flagged for a closer look

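Members that were lower in both TAK-981 libraries of 1 class and higher in both of another, without overlap in either, are given here. The difference between classes was not tested for these pairs, which come from the same 4 mice. Over all genes, 21.6 to 27% were higher without overlap in a class and 21.5 to 26.8% lower. How many of all genes had opposite orders in a pair of classes was not counted. The pairs below are therefore not shown to differ from genes at large. Psma4 was lower in epithelial-like cells, and its log2 fold change there minus that in fibroblast-like, T or NK-like and neutrophil-like cells was -0.905, -1.064 and -1.481. Psmb1 gave -0.684 against fibroblast-like and -0.915 against neutrophil-like cells, and Psmb3 gave -0.657 against fibroblast-like and -0.766 against T or NK-like cells. Psma1 was lower in neutrophil-like cells, and its log2 fold change was higher by 1.001 in epithelial-like, 1.028 in macrophage-like, 1.12 in fibroblast-like and 1.016 in T or NK-like cells. Psmb2, a non-catalytic beta subunit, was lower in neutrophil-like cells too, and its log2 fold change was higher by 1.15 in macrophage-like, 1.30 in fibroblast-like and 1.326 in T or NK-like cells.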

How the results depend on the processing

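The counts of members called and the class medians were recomputed with DESeq2, RLE size factors, no filter on low counts, a replicate block, the length trend removed or short transcripts left out, each library left out, other cell filters, doublets kept and single clusters. Of the alternative values of these counts and medians 356 stayed within the spread between replicates or within 1.5 times the count, and 14 did not. With scaling by total UMIs, added after the data were seen, 5 members rose in epithelial-like cells, the core medians were 0.467, 0.671 and 0.971 in epithelial-like, macrophage-like and T or NK-like cells, and the regulatory particle medians were 0.711, 0.588 and 0.763. Without the low-count filter 1 member rose in fibroblast-like cells, as did 240 of all 16469 genes, while 284 fell. Leaving out each library gave core medians of 0.187 to 0.704 in fibroblast-like cells. Regulatory particle medians were then -0.039 to 0.328 in epithelial-like and 0.231 to 0.770 in neutrophil-like cells. The counts of members risen in T or NK-like cells and differing between epithelial-like and macrophage-like cells also changed, in fits that leave 1 library in a group. Of 416 alternative log2 fold changes of members named by rule, 399 kept their sign, 332 of them within 1.5 times the reported size, and 4 crossed the threshold, all in epithelial-like cells scaled by total UMIs. Without the epithelial-like cluster led by Hp and Ambp, also added after the data were seen, 337 of all genes rose and 429 fell, against 131 and 264 with it. The cause of these changes was not tested.

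The labels used here do not say whether replicate numbers pair the mice. Deviations of same-numbered libraries correlated at -0.02 to -0.11 over genes in the 5 classes. No positive correlation was thus seen, which cannot exclude a pairing. With the replicate block 0 members rose or fell in any class, as without it, and the fibroblast-like core median was 0.458. Over all genes that block called 38 higher and 105 lower of 3561 in T or NK-like cells, against 0 and 4 without it. In macrophage-like cells it called 0 and 0 of 10777, against 3 and 1. The counts with it were 131 and 233 of 12668 in epithelial-like, 55 and 123 of 8601 in fibroblast-like and 12 and 3 of 3072 in neutrophil-like cells. Crossed pairing in macrophage-like cells, added after the data were seen, gave 0 called members. It called 95 higher and 175 lower of all 10777 genes, so the choice of block changes the calls at large. The SE of members was largest in neutrophil-like cells, the class with the fewest UMIs per cell.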
